A study of Mus musculus with 6 samples.

Results

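Genes of the BCL2 family and a death ligand of the TNF family were read on 6 expression arrays of the uterine horn of ovariectomized mice. The list named 10 genes, 3 that promote cell survival (Bcl2, Bcl2l1 and Mcl1) and 7 that promote cell death (Bcl2l11, Bbc3, Bmf, Bax, Bad, Bnip3 and Tnfsf10). A probe set was taken for a gene where the platform annotation gave it that symbol alone, and the brightest one by its mean over the 6 arrays led. This gave 9 genes among 18193 measured, with 30 probe sets; Bax is not analysed here. The P4 group held 3 arrays and the Oil group 3 arrays. P4 is the usual abbreviation of progesterone, and oil is a common carrier for steroid hormones. Mice of both groups were female, 8 weeks old, of mixed background and ovariectomized, and both carried the GATA2 f/f genotype, by convention a floxed allele that is intact until a recombinase acts on it. The labels name no recombinase, dose, time after treatment or pooling of animals. Nothing in them says that the 3 arrays of a group came from separate animals, so the p-values speak only of the spread between these arrays, which may be technical. The title of the series is about where the progesterone receptor and GATA2 bind in the mouse uterus, and P4 was set against Oil to read the transcripts of that tissue after the hormone.

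Apoptosis through the mitochondrion is set by the balance of BCL2 proteins. Survival members hold BH3-only proteins and the pore formers Bax and Bak1 in check, while BH3-only proteins occupy the survival members or activate the pore formers, after which cytochrome c leaves the mitochondrion and caspases are switched on. A second route starts at the cell surface, where death ligands such as Tnfsf10 (TRAIL) engage death receptors that recruit caspase-8. In the rodent uterus, loss of ovarian steroids is followed by apoptosis of the epithelium. Many BCL2 proteins are also controlled by phosphorylation, cleavage and degradation, which transcript levels do not show.

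Values are the deposited intensities of a probe set, a relative brightness with no absolute unit, so levels are compared between arrays for 1 probe set and never between probe sets. Differences are P4 minus Oil on the log2(intensity + 16) scale with their SE, which understates changes of dim probe sets, and a gene was called where the limma p-value adjusted over all 18193 genes was under 0.05. By that rule 13% of all genes were called, 6.08% higher and 6.94% lower after P4, and the median difference over all genes was -0.01. The array medians lay between 117 and 123. Summed intensities of the 11 stromal markers ran from 49200 to 59906 on P4 arrays and from 50928 to 56725 on Oil arrays. Those of the 10 myometrial markers ran from 52304 to 60854 on P4 arrays and from 56108 to 57142 on Oil arrays, and those of the 13 epithelial markers from 17870 to 25736 on P4 arrays and from 21136 to 23529 on Oil arrays. The deposited values hold a background, so such a sum alone does not show that a tissue layer was present. In bulk tissue, fewer cells of a type and less RNA per cell cannot be told apart.

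The promoter windows of the genes that the results turn on are given as context for the values, and were searched for motifs of factors linked to this comparison. Each window is the 250 bases before an annotated start, on the gene's strand, 5′ to 3′, from RefSeq (GRCm38.p6). All 9 measured genes matched the table, with 17 windows in all. Capitals mark a match, on either strand, to the FoxO core GTAAACA, the GATA motif AGATAA or the steroid receptor hexamer AGAACA. No matches overlapped each other. Bcl2l1 and Bcl2 are shown because they moved in opposite directions, and Bmf and Tnfsf10 because they fell most. Bcl2l11 and Bbc3 are shown because 1 window of each holds the FoxO core. Bcl2l1, Bcl2l11, Bbc3 and Bmf have more than 1 window. For Bcl2l1, Bcl2l11 and Bbc3 the 1 window with a match is shown, and their others hold none. Bmf has no match in any window, and 1 is shown.
Bcl2l1 (chr2:152828490-152828739, minus strand): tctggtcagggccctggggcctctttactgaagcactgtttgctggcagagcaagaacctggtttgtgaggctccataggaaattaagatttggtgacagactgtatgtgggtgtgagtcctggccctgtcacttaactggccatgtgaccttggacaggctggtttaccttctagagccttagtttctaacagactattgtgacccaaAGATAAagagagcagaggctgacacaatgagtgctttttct
Bcl2 (chr1:106714291-106714540, minus strand): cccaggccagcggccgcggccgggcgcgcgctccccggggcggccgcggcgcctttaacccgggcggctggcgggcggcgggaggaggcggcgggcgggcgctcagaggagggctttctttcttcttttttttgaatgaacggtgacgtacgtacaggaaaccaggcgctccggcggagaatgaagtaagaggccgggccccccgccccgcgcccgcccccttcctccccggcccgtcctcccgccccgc
Bmf (chr2:118549687-118549936, minus strand): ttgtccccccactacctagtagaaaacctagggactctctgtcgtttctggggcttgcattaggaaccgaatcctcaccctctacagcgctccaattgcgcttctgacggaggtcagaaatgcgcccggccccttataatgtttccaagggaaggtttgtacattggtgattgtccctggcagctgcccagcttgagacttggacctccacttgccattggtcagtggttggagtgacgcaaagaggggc
Tnfsf10 (chr3:27316827-27317076, plus strand): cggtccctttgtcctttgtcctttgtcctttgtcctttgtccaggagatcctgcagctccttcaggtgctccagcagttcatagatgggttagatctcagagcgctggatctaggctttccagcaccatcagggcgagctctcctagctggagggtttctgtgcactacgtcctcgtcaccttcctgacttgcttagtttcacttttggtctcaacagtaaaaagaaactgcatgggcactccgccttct
Bcl2l11 (chr2:128125788-128126037, plus strand): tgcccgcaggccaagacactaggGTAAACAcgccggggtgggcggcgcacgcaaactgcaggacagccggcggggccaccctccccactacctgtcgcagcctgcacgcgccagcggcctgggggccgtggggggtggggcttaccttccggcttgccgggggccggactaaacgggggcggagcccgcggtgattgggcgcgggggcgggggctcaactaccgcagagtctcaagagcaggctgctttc
Bbc3 (chr7:16310011-16310260, plus strand): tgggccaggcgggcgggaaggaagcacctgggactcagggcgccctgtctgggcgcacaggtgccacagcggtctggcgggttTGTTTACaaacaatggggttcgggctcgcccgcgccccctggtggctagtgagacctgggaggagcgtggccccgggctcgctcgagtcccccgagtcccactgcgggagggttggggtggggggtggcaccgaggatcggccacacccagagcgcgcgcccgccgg
The FoxO core was in 2 of the 17 windows, those of Bcl2l11 (227 to 221 bases before the start) and Bbc3 (167 to 161 bases before the start), and in 3.17% of 32851 windows of all genes. The GATA motif was in 1 of the 17, that of Bcl2l1, 41 to 36 bases before the start, and in 9.99% of all windows. The hexamer was in 0 of the 17 and in 16.1% of all windows. A match describes letters and is not a binding site, and no match says only that these letters are not in these 250 bases.

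Of the 9 measured genes, 4 were called, against 13% of all genes: Bcl2l1 rose, and Bcl2, Bmf and Tnfsf10 fell. The groups did not overlap for 7 of the 9 genes, all but Mcl1 and Bad, against 31.8% of all genes. Among the survival genes 1 of 3 rose and 1 fell, with a median difference of -0.12. Among the death promoting genes 0 of 6 rose and 2 fell (limma; 0 and 4 at an unadjusted p under 0.05), with a median difference of -0.33, and all 6 differences were negative. The genes were chosen with results of these data known, so neither count is independent evidence of a direction. Of the 6 negative differences that of Bad was -0.004, and over all 18193 genes 9512 were negative. At an unadjusted p under 0.05 by limma, 2165 of all 18193 genes were higher and 2679 lower.

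**Figure D1:**
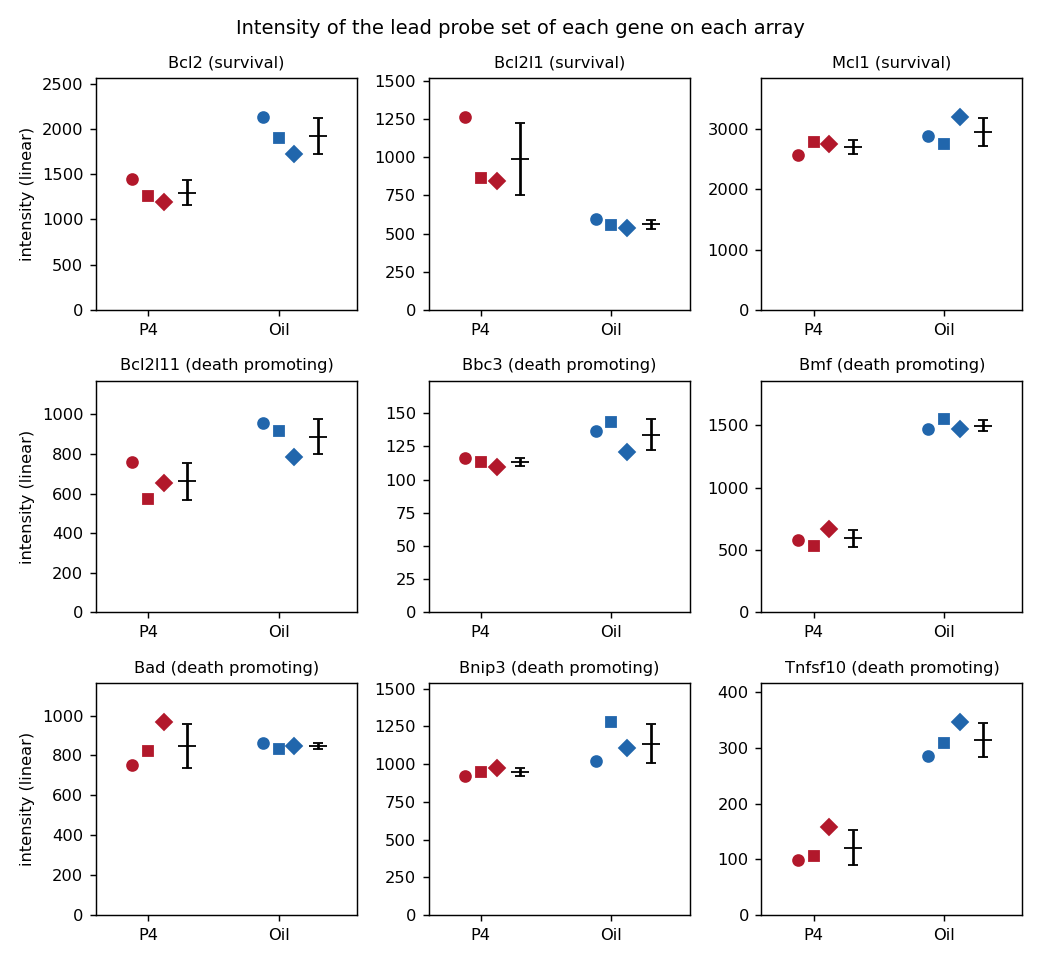
Intensity of the lead probe set (linear axis from 0) of each of the 9 genes on the 3 P4 arrays, left, and the 3 Oil arrays, right, in each panel; circles, squares and diamonds are arrays 1, 2 and 3, and the black bars are the group mean ± SD. The P4 arrays of Bcl2l1 (840.5 to 1262.3) all lie above the Oil arrays (536.8 to 592.2), those of Bmf (532.0 to 669.1) all lie below them (1470.7 to 1547.5), and the groups overlap for Mcl1 and Bad.

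Bcl2l1 encodes BCL-XL, a survival protein of the outer mitochondrial membrane that holds BH3-only proteins and pore formers. Its lead probe set had intensities of 1262.3, 863.2 and 840.5 on P4 arrays 1, 2 and 3, against 592.2, 553.9 and 536.8 on Oil arrays 1, 2 and 3. Every P4 array was above every Oil array, and P4 array 1 was well above the other 2. The means were 989 ± 237 after P4 and 561 ± 28.4 after Oil (SD, n = 3 each), a log2 difference of 0.78 ± 0.15 (limma adjusted p = 0.0153). Without Oil array 2 the adjusted p was 0.0674. A second probe set, with 106 ± 14.7 after P4 and 73.4 ± 4.61 after Oil, rose by 0.44 ± 0.11. Another differed by 0.38 ± 0.11 (adjusted p = 0.0607 over all probe sets), and the fourth, at 39.3 ± 1.3 after P4 and 46.9 ± 7.32 after Oil, by -0.18 ± 0.11. The window shown for Bcl2l1 is that of 1 of its annotated starts, and the arrays do not say which start was used.

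Bcl2 encodes the founding survival protein of the family, and here it moved opposite to Bcl2l1. Its lead probe set had 1446.6, 1256.6 and 1188.7 on P4 arrays 1 to 3, against 2132.1, 1905.7 and 1727.6 on Oil arrays 1 to 3. All P4 arrays were below all Oil arrays, and in both groups array 1 was highest and array 3 lowest. The means were 1297 ± 134 after P4 and 1922 ± 203 after Oil, a difference of -0.56 ± 0.11 (adjusted p = 0.0138). All 5 probe sets of Bcl2 fell, by -0.53 to -0.70, with no overlap between the groups on any of them. The call on the lead probe set was lost without Oil array 1 (adjusted p = 0.0561), Oil array 2 (0.0604) or P4 array 2 (0.0536).

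Mcl1 encodes a short-lived survival protein whose amount depends strongly on its degradation. Its lead probe set had 2564.4, 2777.3 and 2745.9 on P4 arrays 1 to 3, against 2882.1, 2742.1 and 3190.9 on Oil arrays 1 to 3. The groups overlapped, and Mcl1 did not pass the test: the means were 2696 ± 115 after P4 and 2938 ± 230 after Oil, a difference of -0.12 ± 0.08 with a 95% interval of -0.30 to 0.06 (adjusted p = 0.399). Its sign turned in 2 of the 20 alternative settings. None of its 6 probe sets was called over all probe sets, and their differences ran from -0.12 to 0.39. With the replicate block, 1 of them, at 431 ± 135 after P4 and 326 ± 115 after Oil, passed with an adjusted p of 0.0169.

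Bmf encodes a BH3-only protein that is held on the actin cytoskeleton by the dynein light chain Dynll2 and is released by loss of attachment. It fell most of the 9 genes. Its lead probe set had 583.7, 532.0 and 669.1 on P4 arrays 1 to 3, against 1470.7, 1547.5 and 1472.1 on Oil arrays 1 to 3. Each P4 array was below every Oil array by a wide margin, with little spread within either group. The means were 595 ± 69.2 after P4 and 1497 ± 43.9 after Oil. The log2 difference was -1.31 ± 0.10 (limma adjusted p = 0.00055), which is a ratio of 0.402 with the added 16. The call held with each array left out in turn (highest adjusted p 0.00523). The suffix of this probe set marks it as open to cross-hybridisation. Of the other 2, which are dim, 1 had 67.1 ± 7.90 after P4 and 80.9 ± 9.26 after Oil (-0.22 ± 0.11, adjusted p = 0.28) and 1 had 61.9 ± 10.5 after P4 and 67.8 ± 2.24 after Oil (-0.11 ± 0.12, adjusted p = 0.644). With probe sets of the suffix a, s or x left out, Bmf was read from the first of these and was not called (limma adjusted p = 0.272).

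Bcl2l11 encodes BIM, a BH3-only protein that binds all survival members and can activate the pore formers. Its lead probe set had 757.5, 571.1 and 654.0 on P4 arrays 1 to 3, against 955.0, 915.0 and 786.0 on Oil arrays 1 to 3. The P4 arrays were all below the Oil arrays, P4 array 1 only just so. The means were 661 ± 93.4 after P4 and 885 ± 88.3 after Oil, a difference of -0.42 ± 0.12 with a 95% interval of -0.70 to -0.13 that missed the threshold (adjusted p = 0.0631). With the replicate block it passed (adjusted p = 0.0206), and it passed in 7 of the 20 alternative settings in all. A second probe set, with 434 ± 21.5 after P4 and 646 ± 15.6 after Oil, fell by 0.56 (SE 0.08, adjusted p = 0.00543 over all probe sets), and another, with 197 ± 18.8 after P4 and 262 ± 18.1 after Oil, fell by 0.38 (SE 0.10, adjusted p = 0.0490). All 5 probe sets of Bcl2l11 had negative differences, and 2 of them were called.

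Bbc3 encodes PUMA, a BH3-only protein known as a target of p53 and of FoxO3. It had 116.1, 113.6 and 109.8 on P4 arrays 1 to 3, against 136.8, 143.4 and 120.8 on Oil arrays 1 to 3. The groups did not overlap, but the difference of -0.21 ± 0.09 (95% interval -0.42 to 0.00) did not pass (113 ± 3.19 after P4, 134 ± 11.7 after Oil, adjusted p = 0.195). Bad encodes a BH3-only protein that survival kinases hold inactive by phosphorylation. It had 753.6, 823.8 and 968.3 on P4 arrays 1 to 3, against 861.5, 832.3 and 846.2 on Oil arrays 1 to 3. The Oil arrays lay inside the range of the P4 arrays, and the difference of -0.004 ± 0.10 had a 95% interval of -0.24 to 0.23 (adjusted p = 0.987). Its sign turned in 6 of the 20 alternative settings.

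Bnip3 encodes a protein of the outer mitochondrial membrane with a BH3-like region that is induced by hypoxia and marks mitochondria for mitophagy. It had 922.2, 948.8 and 975.4 on P4 arrays 1 to 3, against 1021.8, 1279.7 and 1106.7 on Oil arrays 1 to 3. All P4 arrays were below all Oil arrays and lay close together. The means were 949 ± 26.6 after P4 and 1136 ± 131 after Oil, a difference of -0.25 ± 0.09 (95% interval -0.47 to -0.03) that did not pass (adjusted p = 0.137).

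Tnfsf10 encodes TRAIL, a death ligand that binds the death receptor Tnfrsf10b in the mouse. Its lead probe set had 98.8, 106.6 and 157.5 on P4 arrays 1 to 3, against 285.6, 308.9 and 346.5 on Oil arrays 1 to 3. The groups were far apart, and array 3 was highest in each. The means were 121 ± 31.9 after P4 and 314 ± 30.7 after Oil. The log2 difference was -1.29 ± 0.16 (limma adjusted p = 0.00308), which is a ratio of 0.410 with the added 16. The call held with each array left out in turn (highest adjusted p 0.0205). A second probe set, with 123 ± 24.6 after P4 and 298 ± 47.4 after Oil, fell by 1.18 (SE 0.15), and another, dim at 40.3 ± 11.3 after P4 and 53.7 ± 8.78 after Oil, did not pass (-0.32 ± 0.16, adjusted p = 0.274).

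Over all 30 probe sets of the 9 genes, 2 were called higher and 10 lower, where 10.1% of all probe sets with 1 symbol were called, 5.08% higher and 5.04% lower. The difference was negative for 25 of the 30, and the groups did not overlap on 19. The shares over all probe sets were not computed for these counts. Over all 18193 genes 9512 differences were negative, and 31.8% of genes did not overlap. Probe sets of 1 gene are also not separate evidence: Bcl2 gave 5 of the 19 and Bcl2l11 gave 4. Without Oil array 1 the number called was 6, and without Oil array 2 it was 7. The genes differed in how alike their probe sets were: those of Bcl2 and Bcl2l11 all had 1 sign, while those of Bcl2l1 and Mcl1 had both.

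**Figure D2:**
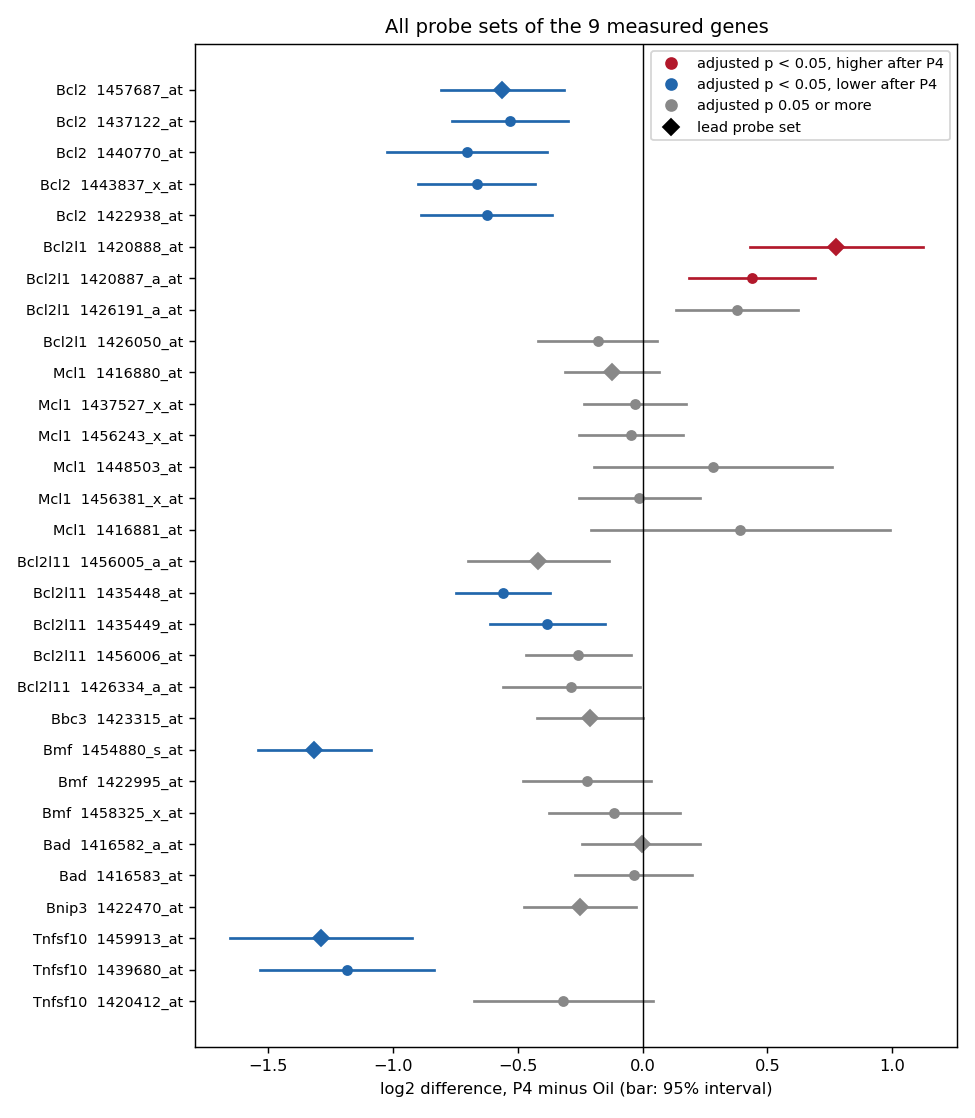
Log2 difference, P4 minus Oil, of each of the 30 probe sets of the 9 genes, with bars for the 95% interval; the lead probe set of each gene and the probe sets with an adjusted p under 0.05 over all probe sets are marked as in the legend. The 5 probe sets of Bcl2 lie between -0.70 and -0.53, while those of Mcl1 lie on both sides of 0.

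As a description of survival against death promoting genes within 1 array, the mean-centred log2 values of the 3 survival genes were averaged and those of the 6 death promoting genes subtracted. The result was 0.50, 0.34 and 0.09 on P4 arrays 1 to 3, and -0.22, -0.40 and -0.30 on Oil arrays 1 to 3. The groups did not overlap, and P4 array 3 was nearest to the Oil arrays; centring over the same 6 arrays sets where 0 lies. The survival average overlapped between the groups (0.17, -0.04 and -0.08 on P4 arrays, 0.05, -0.06 and -0.04 on Oil arrays), since Bcl2l1 and Bcl2 moved in opposite directions. The death promoting average did not overlap (-0.33, -0.38 and -0.17 on P4 arrays, 0.27, 0.35 and 0.26 on Oil arrays). Of these 6 genes, Bmf (-1.31) and Tnfsf10 (-1.29) had by far the largest differences, against -0.42 to -0.004 for the others. The genes were chosen with results of these data known, so the separation is not independent evidence of a shift of the whole list.

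The genes whose mean-centred profile over the 6 arrays was nearest to that of Bcl2l1 were Gcnt2, which transfers a sugar in glycan branching, at a root mean square distance of 0.035 log2 and a difference of 0.74, Jakmip1 (0.053, difference 0.81) and Secisbp2l (0.058, difference 0.82). Nearest to Bmf were Fam214a (0.049, difference -1.27), the arrestin-like Arrdc3 (0.091, difference -1.20) and Crebrf (0.099, difference -1.17). The nearness rests on 6 arrays, and every gene with a like difference between the groups is near.

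The other genes of the 2 death routes were counted from lists that were likewise chosen with earlier results known, and members are named in order of the size of their difference. The counts of these and the later lists stand beside 13% of all genes called, and 20.9% with the replicate block. Their counts at an unadjusted p under 0.05 stand beside 2165 higher and 2679 lower of all 18193 genes. Of 3 other survival genes of the BCL2 family, 0 were called (limma; also 0 at an unadjusted p under 0.05), Bcl2l2 (BCL-W) among them at 0.03 (adjusted p = 0.887). Of 10 other death promoting genes of the family, 1 rose and 1 fell, with a median of 0.04. Pmaip1, which encodes NOXA, a BH3-only protein that binds MCL1, had 275.7, 257.9 and 335.0 on P4 arrays 1 to 3, against 86.3, 84.4 and 170.1 on Oil arrays 1 to 3. All P4 arrays were above all Oil arrays, and array 3 was highest in each group. Oil arrays 1 and 2 lay below the array medians of 117 to 123. It rose by 1.29 ± 0.24 (limma adjusted p = 0.0116, and 0.0544 without Oil array 2), opposite in direction to Bmf and Tnfsf10, the death promoting genes called above. Bnipl fell by 0.57 (SE 0.14, adjusted p = 0.0319), but was not called without Oil array 1 or 2 or P4 array 2 or 3 (up to 0.110), or with arrays scaled to the hybridisation controls (0.0583). The number called of the 10 was 1 without Oil array 1, P4 array 2 or P4 array 3, and 0 without Oil array 2. Bak1, the pore former beside Bax, differed by 0.21 (adjusted p = 0.334), and Bid, the BH3-only protein that caspase-8 cleaves, by 0.05 (adjusted p = 0.920).

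Among 22 death ligands, receptors and adaptors, 4 rose and 0 fell (limma; likewise 4 and 0 at an unadjusted p under 0.05), and the median was 0.02. Tnfrsf21 (death receptor 6), which has a death domain, had 1097 ± 148 after P4 and 228 ± 58.6 after Oil, a difference of 2.21 ± 0.17 (adjusted p = 0.000611). Ngfr, the p75 neurotrophin receptor, also with a death domain, rose by 1.05 ± 0.16 (adjusted p = 0.00641). Tnfrsf12a, the receptor of TWEAK, rose by 0.99 ± 0.20 (adjusted p = 0.0178) and Ltbr, the lymphotoxin beta receptor, by 0.34 ± 0.09 (adjusted p = 0.0435). Both of these were lost without Oil array 1 or 2 or P4 array 2 or 3, with adjusted p up to 0.0799 for Tnfrsf12a and 0.148 for Ltbr, and Ltbr also without Oil array 3; 2 of the 22 were called without each of the first 4 arrays. The partners of Tnfsf10 did not pass. Its receptor Tnfrsf10b differed by 0.22 (limma adjusted p = 0.469) and its soluble decoy Tnfrsf11b by 0.06 (0.943). Casp8 differed by -0.04 (0.923) and Cflar, which blocks caspase-8, by -0.15 (0.360). Tnfrsf10b (53.8 ± 15.7 after P4, 43.2 ± 4.80 after Oil) and Tnfrsf11b (41.9 ± 7.03 after P4, 44.5 ± 32.2 after Oil) were dim, below the array medians of 117 to 123. For these genes a lack of signal cannot be told from a lack of change.

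Among 17 caspase and apoptosome genes, 3 rose and 3 fell, with a median of -0.16, and with the replicate block 4 rose and 7 fell. Without Oil array 1, 1 rose and 3 fell, as Septin4 (adjusted p = 0.115) and Endog (0.0517) lost their calls. Cycs, which encodes cytochrome c, rose by 1.05 ± 0.16 (adjusted p = 0.00658). Casp6, an executioner caspase, fell by 0.73 (SE 0.14, adjusted p = 0.0140), but was not called without Oil array 2 or P4 array 2 (up to 0.0570) or with the mean of its probe sets (0.0512). Casp12, a caspase of the endoplasmic reticulum, fell by 0.59 (SE 0.10, adjusted p = 0.00831), and Casp2 fell by 0.58 (SE 0.09, adjusted p = 0.00754). Among 9 inhibitor of apoptosis genes, 1 rose and 2 fell, but with arrays scaled to the hybridisation controls 2 rose and 0 fell, and with the replicate block 2 rose and 3 fell. The number called was 0 without Oil array 1 or 2 and 1 without any other array. Naip5, which belongs to a family of near-identical copies that probes may not separate, rose by 1.41 ± 0.33 (adjusted p = 0.0286), and lost its call without Oil array 1 or 2 or P4 array 3 (up to 0.114). Birc2 (cIAP1) fell by 0.36 (SE 0.10, adjusted p = 0.0462) and Xiap, which binds active caspases, fell by 0.28 (SE 0.07, adjusted p = 0.0402). Birc2 lost its call without any array but P4 array 3 (up to 0.157), and Xiap without any 1 of the 6 (up to 0.142). Under the scaling to hybridisation controls both were not called (0.136 for Birc2 and 0.282 for Xiap), and averaging the 7 probe sets of Xiap turned its sign (0.12, adjusted p = 0.329).

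**Figure D3:**
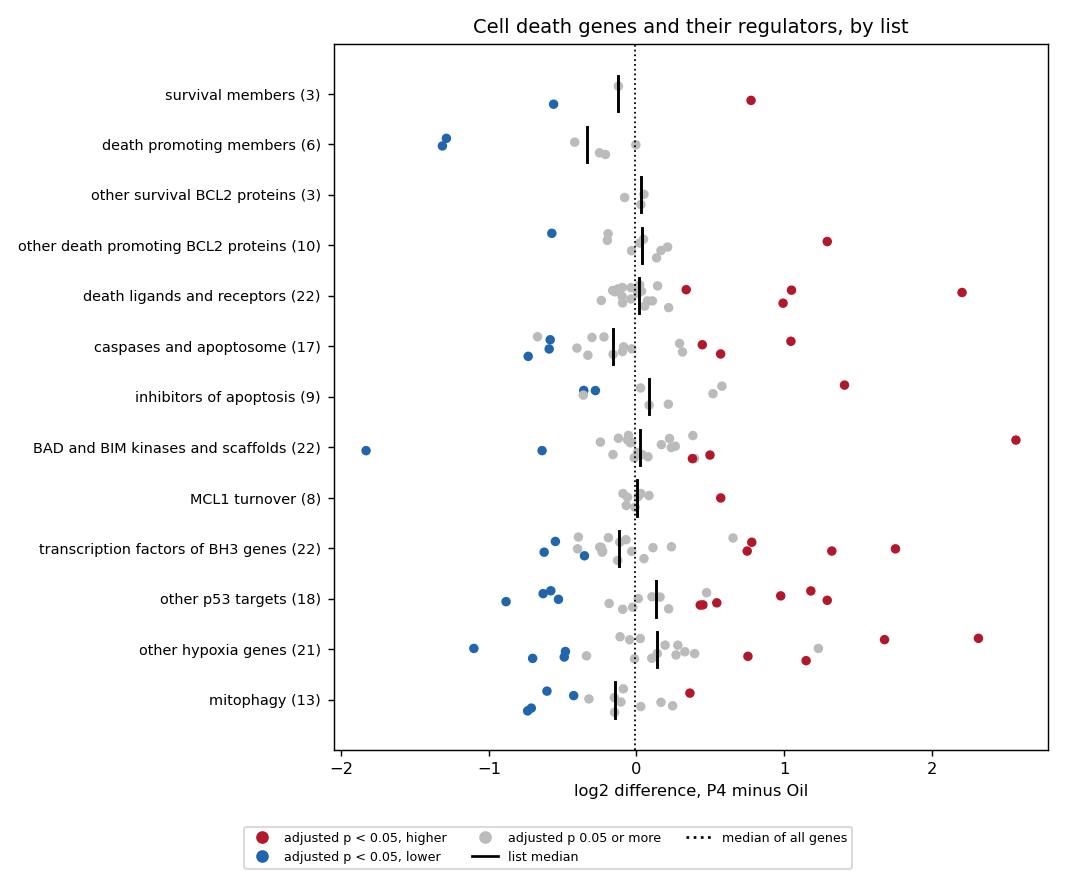
Log2 difference, P4 minus Oil, of every measured gene of each list (number measured in brackets); colours mark genes with an adjusted p under 0.05, black bars list medians and the dotted line the median of all genes (-0.01). All 6 death promoting genes lie at or below 0 with a median of -0.33, while the largest increases are those of Sgk1 (2.57), Pfkfb3 (2.32) and Tnfrsf21 (2.21).

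Proteins that act on the BH3-only proteins after translation were read from 22 genes of kinases and scaffolds, of which 3 rose and 2 fell. With arrays scaled to the hybridisation controls 8 rose and 2 fell, and with the replicate block 7 rose and 3 fell; without Oil array 2 the number called was 2. Sgk1, a kinase related to Akt that phosphorylates FoxO3, had 4420 ± 117 after P4 and 742 ± 166 after Oil (2.57 ± 0.14, adjusted p = 0.000421). Pik3ip1, an inhibitor of phosphatidylinositol 3-kinase upstream of Akt, had 487 ± 79.5 after P4 and 1772 ± 283 after Oil (-1.83 ± 0.15, adjusted p = 0.000672). Of the PIM kinases, which can phosphorylate BAD, Pim1 fell by 0.64 (SE 0.13, adjusted p = 0.0155, and up to 0.0665 without Oil array 2 or P4 array 2). Pim3 rose by 0.50 ± 0.13 (adjusted p = 0.0386), a call lost without any array but P4 array 2 (up to 0.09996) and with the mean of its probe sets (0.0986). Dynll1, the light chain that holds BIM on microtubules, rose by 0.38 ± 0.07 (limma adjusted p = 0.0116, and 0.0586 without Oil array 2). It was not called on the probe set used once those of the suffix a, s or x were removed (0.28, adjusted p = 0.113). Dynll2, the light chain that holds BMF, differed by -0.04 (adjusted p = 0.834), but by 0.35 (adjusted p = 0.0207) after that same removal. Of 8 genes of MCL1 turnover, 1 rose and 0 fell by limma, also at an unadjusted p under 0.05. That is 12.5% called, near the 13% of all genes. Trib1, a pseudokinase scaffold of a ubiquitin ligase, rose by 0.57 ± 0.10 (limma adjusted p = 0.0114, 0.0551 without Oil array 2, and 0.0710 with the mean of its probe sets).

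Of 22 transcription factors known to act on BH3-only genes and their regulators, 4 rose and 3 fell, and with arrays scaled to the hybridisation controls 5 rose and 2 fell. Nfil3, a basic leucine zipper repressor, had 718 ± 79.95 after P4 and 202 ± 31.0 after Oil (1.75 ± 0.13, adjusted p = 0.000551). Trp63, of the p53 family, rose by 1.32 ± 0.25 (adjusted p = 0.0139, up to 0.0633 without Oil array 1 or 2 or P4 array 2), Atf4, of the stress response, by 0.78 ± 0.07 (adjusted p = 0.000761) and Hif1a, of the hypoxia response, by 0.75 ± 0.12 (adjusted p = 0.0071). Of the FoxO factors, whose core motif is in 1 window each of Bcl2l11 and Bbc3 above, Foxo1, Foxo3 and Foxo4 had negative differences. Foxo1 had 1344.2, 1090.9 and 945.3 on P4 arrays 1 to 3, against 1550.0, 1528.4 and 1357.4 on Oil arrays 1 to 3. The groups did not overlap, and the difference of -0.40 ± 0.13 missed the threshold (limma adjusted p = 0.0868). It passed with the replicate block (0.0149) and without P4 array 1 (0.0177), but not without any other single array (up to 0.242). With arrays scaled to the hybridisation controls it did not pass (0.217). Foxo3 differed by -0.24 (adjusted p = 0.117), and Foxo4, named after its value was seen, fell by 0.55 (SE 0.09, adjusted p = 0.00853).

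Among 18 other targets of p53, 6 rose and 4 fell, with a median of 0.13. Ccng1, which encodes cyclin G1, rose by 1.18 ± 0.17 (adjusted p = 0.00507) and Aen, a nuclease, by 0.98 ± 0.09 (adjusted p = 0.000929), and Pmaip1, given above, is also on this list. Gadd45a, of the response to DNA damage, fell by 0.88 (SE 0.15, adjusted p = 0.00933). The list thus held calls in both directions. Of the p53 targets in the BCL2 family, Pmaip1 was called higher and Bbc3 was not called. The number called was 5 without Oil array 2 and 6 without P4 array 2.

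Bnip3 was also set beside 21 other hypoxia genes, of which 4 rose and 4 fell around a median of 0.14. With arrays scaled to the hybridisation controls 4 rose and 2 fell, and the number called was 5 without Oil array 2 or without P4 array 3. Pfkfb3, which drives glycolysis, had 1569 ± 439 after P4 and 304 ± 99.8 after Oil (2.32 ± 0.24, adjusted p = 0.00161). P4ha2, a collagen prolyl hydroxylase, rose by 1.68 ± 0.16 (adjusted p = 0.00108) and Higd1a, a mitochondrial protein, by 1.15 ± 0.17 (adjusted p = 0.00527), whereas Mxi1, an antagonist of MYC, had 632 ± 39.4 after P4 and 1373 ± 71.7 after Oil (-1.10 ± 0.08, adjusted p = 0.00055). Among 13 mitophagy genes 1 rose and 4 fell, with a median of -0.15, and without Oil array 1 the number called was 3. Gabarapl1, of the ATG8 family that mitophagy receptors bind, had 1675 ± 121 after P4 and 2809 ± 313 after Oil (-0.74 ± 0.10, adjusted p = 0.00411). Pink1, the kinase that marks damaged mitochondria, fell by 0.71 (SE 0.12, limma adjusted p = 0.00815) and Sqstm1, an autophagy receptor, by 0.61 (SE 0.11, adjusted p = 0.0101). Sqstm1 was not called once probe sets of the suffix a, s or x were removed (-0.38, adjusted p = 0.227). Ulk1, the kinase that starts autophagy, fell by 0.43 (SE 0.11, adjusted p = 0.0379), but was not called with arrays scaled to the hybridisation controls (0.115) or without Oil array 1 or 3 or P4 array 2 or 3 (up to 0.135). Bnip3 itself had a negative difference without passing the test, and 9512 of all 18193 genes had a negative difference.

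Markers of some cell types moved beside these results. Of 10 endothelial markers 2 fell, Cldn5 and Tek (Tek with an adjusted p of up to 0.132 without Oil array 2 or 3 or any P4 array), and all 10 differences were negative, with summed intensities of 7263 to 7300 on P4 arrays and 8046 to 9757 on Oil arrays. Of 6 adipose markers 0 were called (limma; 4 were lower at an unadjusted p under 0.05), but with the replicate block 4 fell, Adipoq (adjusted p = 0.00273), Fabp4 (0.00206), Retn (0.00902) and Pck1 (0.0354). Their sums were 467 to 1066 on P4 arrays and 1044 to 1825 on Oil arrays. Of 11 stromal markers 3 rose (Hoxa10, Hoxa11 and Hand2) and 1 fell (Lum). Without Oil array 2, 2 of them rose and 0 fell (adjusted p of 0.0698 for Lum and 0.0707 for Hand2), and Hand2 was also not called without Oil array 3. Of 13 epithelial markers 1 rose (Cldn3) and 0 fell (limma; 2 and 3 at an unadjusted p under 0.05). When the replicate number was a block, 2 of the 13 rose, Cldn3 and Esrp1, and 4 fell, Krt18 (adjusted p = 0.0310), Krt19 (0.0147), Epcam (0.0465) and Elf3 (0.00214). Of 10 myometrial markers 0 were called (limma; 0 at an unadjusted p under 0.05). Granulocyte sums ran from 860 to 16126 on P4 arrays and from 927 to 11675 on Oil arrays, and macrophage sums from 4019 to 11217 on P4 arrays and from 4002 to 9975 on Oil arrays, with array 1 low and array 3 high in both groups. The replicate block called 1 of the 10 macrophage markers, Cd14, which rose (adjusted p = 0.00560), and 0 were called without it (limma; 0 at an unadjusted p under 0.05). Of 10 T and NK cell, 4 red cell, 8 mast cell and 7 ovary and oviduct markers, 1 was called, Inha of the last list, which fell (adjusted p of up to 0.0655 without Oil array 2 or P4 array 2). No list's defining markers were at 0, since the deposited values hold a background. The part of these shifts in the differences of Bcl2, Bcl2l1, Bmf, Bcl2l11 and Tnfsf10 was not tested.

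Scaling mattered for counts over all genes more than for the 9 genes. The hybridisation controls, RNAs added to every sample, were lower by 0.13 log2 on P4 arrays, and with arrays scaled to them the median difference over all genes was 0.12 and 1927 genes rose and 624 fell, against 1106 and 1262 as reported. Under that scaling 1 of the 9 genes rose and 3 fell, as without it, with adjusted p of 0.00717 for Bcl2l1 and 0.0426 for Bcl2. The number of arrays limits all of these calls. With both arrays numbered 2 left out, 1 of the 9 genes was called, Bmf (adjusted p = 0.0379), and Bcl2 (0.182), Bcl2l1 (0.143) and Tnfsf10 (0.0921) were not. Without Oil array 2 alone, 2 of the 9 were called.

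**Figure D4:**
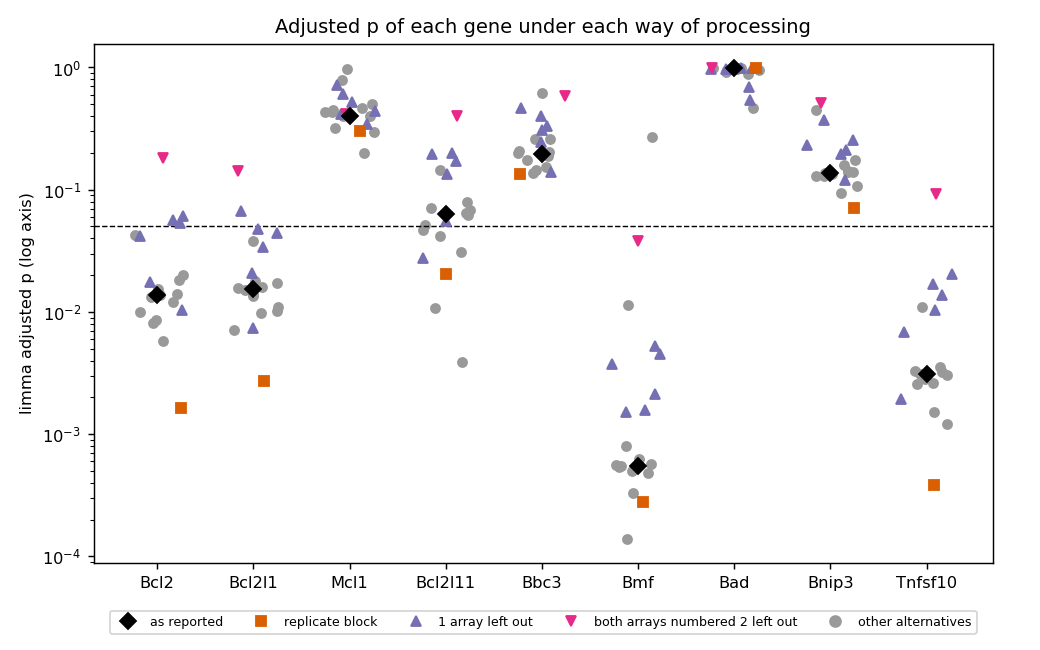
Limma adjusted p (log axis) of each of the 9 genes as reported and under 20 alternative settings (19 for Bbc3 and Tnfsf10, which are among the dimmest 50% of genes), with the replicate block, each array left out and both arrays numbered 2 left out marked as in the legend; the dashed line is 0.05. Tnfsf10 lies below the line except with both arrays numbered 2 left out (0.0921). Bmf does so except on the probe set left by removing those of the suffix a, s or x (0.272). Bcl2l11 lies on both sides (0.0631 as reported, 0.0206 with the replicate block).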

How the data were processed

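Biotin-labelled cRNA of total RNA from 3 P4 and 3 Oil samples was hybridised to expression arrays, per the labels. The authors deposited linear intensities, 1 per probe set and array; their summarisation and scaling are not given in the sources used here. Of 45101 probe sets, 64 are controls, 34945 had 1 gene symbol in the platform annotation, 932 several, and 9160 are unnamed here; 34741 matched a RefSeq gene table (GRCm38.p6) by gene ID. Only those with 1 symbol were used. The brightest probe set over the 6 arrays stood for a gene.

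Values became log2(intensity + 16) with no further normalization, as array medians differed by 0.059 log2. P4 was compared with Oil in limma 3.58.1 (lmFit, then eBayes with a trend; R 4.3.3) across all genes, with Benjamini-Hochberg adjustment and a threshold of 0.05; probe sets were fitted likewise. On simulated data of 18193 genes (20 runs), 33% of genes changed by 0.5 log2 were recovered, 84.1% at 1 and 97.4% at 2, and 3.99% of calls were false. The simulation changed far fewer genes than were called here and drew each array independently.

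The members and lists were chosen with earlier results of these data known. Named are all members and their probe sets, up to 4 called genes per list by size, partners of members whatever their values, and the 3 nearest profiles of the member that rose most and of the one that fell most.

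Replicate numbers recur in both groups. For arrays that share a number, the correlation of their deviations from their group's mean was 0.526, 0.126 and 0.643, each above 0.1. The reported fit did not use the numbers, and only the replicate block treated the arrays as paired by number. The pairing comes from the data, as the labels give only the shared number, and P4 array 1 with Oil array 2 gave 0.287. Alternatives were quantile normalization, median centring, scaling to the 18 hybridisation control probe sets, averaging the probe sets of a gene, and removing those of the suffix a, s or x. Others were dropping the dimmest 30% or 50%, a pseudocount of 1 or 50, other moderation, array weights and a threshold of 0.01. The rest were the replicate block, and fits without each array or without both arrays numbered 2. Probe set and list counts under alternatives were added after seeing the data.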

Additional observations from a re-analysis of the deposited data

How the results depend on the processing

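The count of genes changed, P4 minus Oil, was 2368 as reported, with 4 of the 9 BCL2 family and death ligand genes called. With the replicate block 3801 genes were called, and 5 of the 9; the block added Bcl2l11 and, among the partners and regulators named in the report, Foxo1, beside the adipose, epithelial and macrophage markers given there. At a threshold of 0.01, 881 genes and 2 of the 9 were called. With both arrays numbered 2 left out, 171 genes and 1 of the 9 were called; 2 against 2 arrays are fewer samples. With 1 array left out, 993 to 2302 genes, 2 to 5 of the 9 and 6 to 11 of their 30 probe sets were called (12 probe sets as reported), the fewest genes without Oil array 2 and the most without P4 array 1; without Oil array 1 it was 1170 genes and without P4 array 2 it was 1401. Xiap turned to 0.12 when its probe sets were averaged, and Dynll2 to 0.35 without probe sets of the suffix a, s or x. The cause was not tested. With 3 arrays a group, differences near 0.5 log2 were often missed in the simulated data. Far fewer genes were changed there than were called here, so the share missed in these data may differ. Depth has no counterpart on arrays, and the added 16 understates differences of dim probe sets.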

Other observations

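The probe sets of Mcl1 differed in how far they followed the replicate number. Of its 6 probe sets, the 2 with positive differences were highest on array 3 in both groups. The first had 1462.2, 1914.5 and 2299.2 on P4 arrays 1 to 3, against 1305.0, 1317.8 and 2063.1 on Oil arrays 1 to 3. The second had 310.8, 405.1 and 577.3 on P4 arrays 1 to 3, against 249.1, 271.2 and 459.0 on Oil arrays 1 to 3. Each P4 array was above the Oil array of the same number. The granulocyte genes S100a8 and S100a9 were also high on array 3 of both groups. S100a8 had 67.6, 3408.4 and 4859.7 on P4 arrays 1 to 3, against 70.3, 64.3 and 2950.3 on Oil arrays 1 to 3. S100a9 had 38.0, 2555.6 and 4120.5 on P4 arrays 1 to 3, against 48.5, 46.5 and 2738.0 on Oil arrays 1 to 3. Both were low on array 1 of each group, while array 2 was high after P4 and low after Oil. The lead probe sets of Tnfsf10 and Pmaip1 were highest on array 3 in each group as well, whereas that of Bcl2 was lowest there in each group. The other probe sets of Bcl2 did not share this order. The dimmest of them was highest on array 3, with 185.3, 222.1 and 242.1 on P4 arrays 1 to 3 and 352.3, 313.5 and 357.1 on Oil arrays 1 to 3. Whether these values share a source was not tested.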
